A study of Mus musculus with 6 samples.

Results

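The collagen chain genes were followed in cultured mouse mammary epithelial cells without the histone demethylase JARID1B. Members were all array probes whose gene symbol in the platform annotation has the form Col, a number, a and a number, which gave 91 of 45281 probes and 41 of 19057 named genes. The detection p of a probe sets its signal against that array's negative controls, and probes with a detection p under 0.05 on 3 or more of 6 arrays were tested. This left 42 collagen probes of 26 genes, among 17920 probes of all genes. The series compared Jarid1b-/- cultures (KO) with Jarid1b+/+ cultures (WT), 3 of each, all early-passage mammary epithelial cells harvested before confluence. Jarid1b is the older name of Kdm5b, whose product removes methyl groups from a lysine of histone H3. The labels speak of pairs of KO and WT cultures, lettered A, B and C in the sample titles. Whether the cultures are from separate animals is not stated, and the p-values therefore reflect variation among these 6 samples that could be technical. Strain, age and the construction of the mutant allele are not given in the sources used here.

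Collagens are secreted proteins built from chains that wind around each other in a long helix with glycine at regular intervals. Fibrillar collagens form the tensile fibres of connective tissue and come mainly from fibroblasts. Type IV collagen forms the sheet-like network of the basement membrane on which mammary ducts and alveoli rest, and collagens XV and XVIII lie in or beside that membrane. Of the other classes, type VI collagen forms beaded microfilaments, the collagens called FACIT bind to fibrils or to other matrix, transmembrane collagens sit in the plasma membrane, and the short chains of collagens VIII and X form networks.

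The genes Col4a1 and Col4a2, whose chains combine in the same type IV molecule, are transcribed away from each other from a common start region. Their promoter windows are shown because the probes of both genes had positive differences in every pair. The windows of Col15a1 and Col8a1 are shown as those of the collagen genes with the largest positive and the largest negative difference. Each window runs from 250 bases before to 50 bases after the start of the gene, 5′ to 3′ on the strand of the gene, from RefSeq on GRCm38.p6. Capitals mark the CCAAT motif, the GGGCGG motif and the TATAAA motif on either strand. Windows and motifs were chosen with the values known. No marked motifs overlapped in these windows.
Col4a1, chr8:11312777-11313076, minus strand: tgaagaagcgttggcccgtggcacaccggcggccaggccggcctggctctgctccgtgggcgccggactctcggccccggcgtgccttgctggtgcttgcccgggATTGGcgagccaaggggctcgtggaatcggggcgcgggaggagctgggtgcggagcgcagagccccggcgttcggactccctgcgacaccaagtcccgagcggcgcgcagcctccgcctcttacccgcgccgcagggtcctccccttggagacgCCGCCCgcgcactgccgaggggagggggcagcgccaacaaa
Col4a2, chr8:11312555-11312854, plus strand: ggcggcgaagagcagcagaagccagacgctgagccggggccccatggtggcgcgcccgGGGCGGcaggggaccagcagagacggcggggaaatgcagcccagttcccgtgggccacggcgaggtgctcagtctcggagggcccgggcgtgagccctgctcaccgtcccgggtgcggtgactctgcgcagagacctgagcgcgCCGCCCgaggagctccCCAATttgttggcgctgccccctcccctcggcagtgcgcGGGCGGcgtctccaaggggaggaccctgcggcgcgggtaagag
Col15a1, chr4:47207762-47208061, plus strand: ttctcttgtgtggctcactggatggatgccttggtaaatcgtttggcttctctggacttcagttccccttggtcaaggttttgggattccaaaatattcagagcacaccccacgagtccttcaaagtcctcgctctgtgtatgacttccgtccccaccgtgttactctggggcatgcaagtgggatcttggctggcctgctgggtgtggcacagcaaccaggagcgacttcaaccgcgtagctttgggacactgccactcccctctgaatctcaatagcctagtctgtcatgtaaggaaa
Col8a1, chr16:57754688-57754987, minus strand: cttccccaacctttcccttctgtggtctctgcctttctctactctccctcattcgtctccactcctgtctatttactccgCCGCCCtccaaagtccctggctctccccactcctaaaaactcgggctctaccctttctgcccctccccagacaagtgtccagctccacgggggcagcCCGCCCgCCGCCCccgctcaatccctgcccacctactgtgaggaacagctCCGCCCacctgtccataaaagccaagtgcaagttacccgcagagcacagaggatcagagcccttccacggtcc
The windows of Col4a1 and Col4a2 share 78 bases, read in opposite directions. Col4a1 held 1 CCAAT and 1 GGGCGG, Col4a2 held 1 and 3, Col8a1 held 4 GGGCGG and no CCAAT, and the Col15a1 window held none of the 3 motifs. RefSeq windows were matched for 22 of the 26 tested genes, 25 windows in all. CCAAT was present in 40% of these windows, GGGCGG in 68% and TATAAA in 8%, against 37.4%, 35.7% and 13.6% of all 32851 RefSeq windows. These matches describe the letters of the windows only.

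The arrays detected 17033 to 18686 probes each. The arrays of pair C were separated from the others along principal component 1 (56.5% of variance). Kdm5b, the targeted gene, read 4.39 ± 0.05 (log2 intensity, SD, n = 3) in KO and 6.85 ± 0.24 (SD, n = 3) in WT at its brightest probe. It was not detected on any KO array and was at least 4.94-fold lower there (limma adjusted p = 0.0155). That bound compares the mean of the bright group with the mean, over the arrays of the dim group, of the lowest detected signal or the probe's own, whichever was higher. In this fit over probes 3 of 17920 (0.0167%) had an adjusted p under 0.05. Of the epithelial markers, 9 of 10 luminal and 8 of 10 basal and myoepithelial genes were tested, and Epcam was not detected on any array. Markers of other cells were present too, with 17 of 18 fibroblast, 10 of 12 endothelial and 6 of 9 macrophage and leukocyte genes tested. Of the last list Cd14, a monocyte receptor, read 10.27 to 12.09 in KO and 10.52 to 12.22 in WT, and Ptprc and Fcer1g were not detected on any array. The KO and WT means were 10.37 and 9.74 for Laptm5 and 8.81 and 7.97 for Lyz2. Csf1r, Tyrobp and Adgre1 were dimmer, with means of 4.91 to 5.44 in KO and 4.89 to 5.35 in WT.

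Of the 26 tested collagen genes, each represented by its brightest tested probe, 21 had a higher mean in KO (80.8%), against 48.2% of 10419 genes. The median log2 difference of KO minus WT was 0.38 over the collagen genes and -0.01 over all genes. No collagen gene passed the test over all probes, with adjusted p of 0.688 or higher, and the background of this call was 0.00960% of genes higher and 0.00960% lower. At an unadjusted p under 0.05 in limma, 9 collagen genes were higher and 1 was lower in KO, where 1.49% and 1.76% of all genes were (3.24% in either direction). The 3 KO values lay above all 3 WT values for 8 collagen genes (background 3.11%) and below them for 2 (background 5.16%). These counts describe the 26 tested genes and not all 41, since the filter keeps a gene that is detected in a single genotype. Of the 26, 4 were not detected on every array. Among them Col5a3 and Col28a1 were detected on 3 KO arrays and 1 WT array, and both had positive differences. Col5a3 is also among the 9 genes and the 8 genes above. So is Col26a1, which was detected on 3 KO arrays and 2 WT arrays. The unadjusted count of 10 was 4 without KO replicate A, 6 without KO replicate C, 5 without WT replicate A and 12 without KO replicate B. Of all 10419 genes, 243 were higher and 149 lower without KO replicate A, and 163 and 220 without KO replicate C. Without WT replicate A these were 66 and 96, and without KO replicate B 455 and 313, against 155 and 183 with all arrays. A fit with the pair as a replicate block gave 13 genes at an unadjusted p under 0.05 (12 higher, 1 lower), where 8.68% of all genes had one and 4.00% were higher, and still 0 with an adjusted p under 0.05 in limma.

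**Figure D1:**
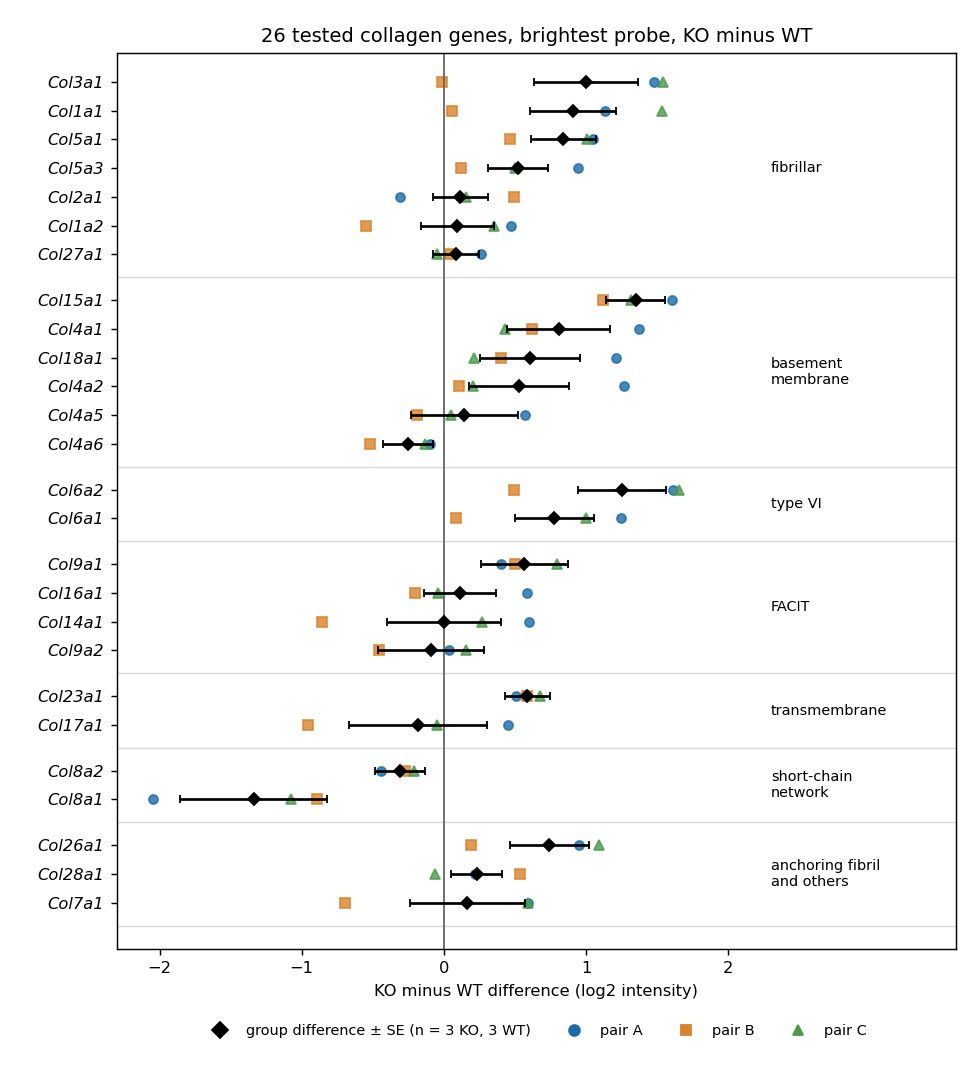
KO minus WT difference of the brightest tested probe of 26 collagen genes, in log2 intensity, grouped by class. Black diamonds with bars are group differences ± SE from limma (n = 3 KO and 3 WT arrays), and coloured symbols are the differences within pairs A, B and C. All 7 fibrillar genes lie right of 0, both short-chain network genes lie left of it, and pair B often lies closest to 0 or below it.

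The difference was uneven over the pairs of cultures. The median over the 26 genes was 0.59 for pair A, 0.07 for pair B and 0.31 for pair C, where 22, 15 and 19 genes were positive. Over all tested genes the medians were -0.01, -0.03 and -0.03. In all 3 pairs 12 collagen genes were positive, against 13.0% of all genes, and 3 were negative, against 18.4%.

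**Figure D2:**
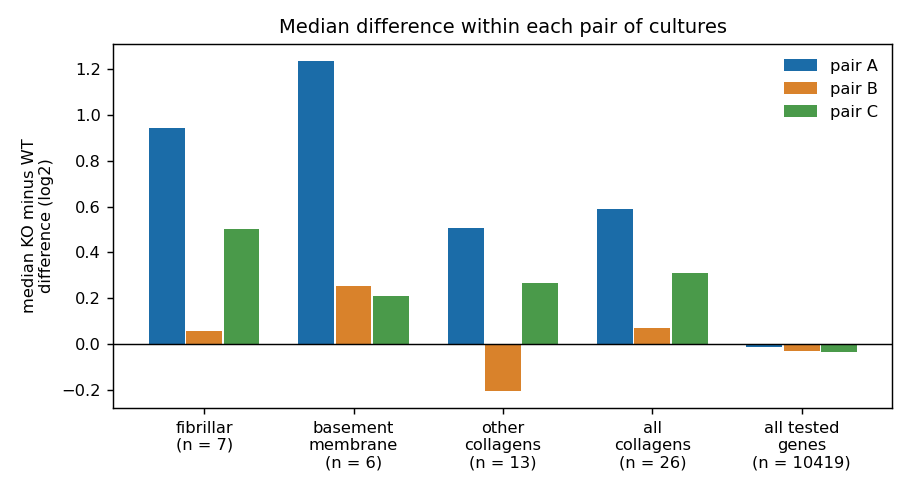
Median KO minus WT difference, in log2 intensity, within each pair of cultures, for the fibrillar, basement membrane and other collagens, all 26 tested collagen genes and all 10419 tested genes. Bars start at 0. Pair A has the highest bar in each of these 4 collagen sets, at 0.94 for fibrillar and 1.24 for basement membrane genes, while the bars of all tested genes lie between -0.03 and -0.01.

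Fibroblast markers were also higher on average in KO. Of the 17 tested genes on a fibroblast marker list without collagens, 16 had a positive difference, and the list median was 0.48, made up of 0.46 (pair A), 0.15 (pair B) and 0.80 (pair C). Of the list's genes 5 also stand on another list used here. The summed linear signal of the 18 listed genes was 11037 to 16212 on KO arrays and 9844 to 10825 on WT arrays, and Tcf21 was not detected on any array. Loxl1, Mfap5, Fbln2, Pdgfrb, Thy1 and Vim were higher at an unadjusted p under 0.05, where 1.49% of all genes were, and none passed over all probes. Pdgfrb, a growth factor receptor of fibroblasts and pericytes, differed by 0.53 (SE 0.16), while Pdgfra and Dcn differed by 0.20 (SE 0.39) and 0.11 (SE 0.16). All 9 tested luminal genes had negative differences, with a median of -0.30 and a summed signal of 20770 to 31451 on KO arrays and 30023 to 36766 on WT arrays. The luminal medians were -0.61, -0.13 and -0.16 in pairs A, B and C. In all 3 pairs 4 of the 9 were negative, against 18.4% of all genes. The part of these cells in the collagen values was not tested, and in such bulk samples more cells of a type cannot be told apart from more RNA per cell.

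**Figure D3:**
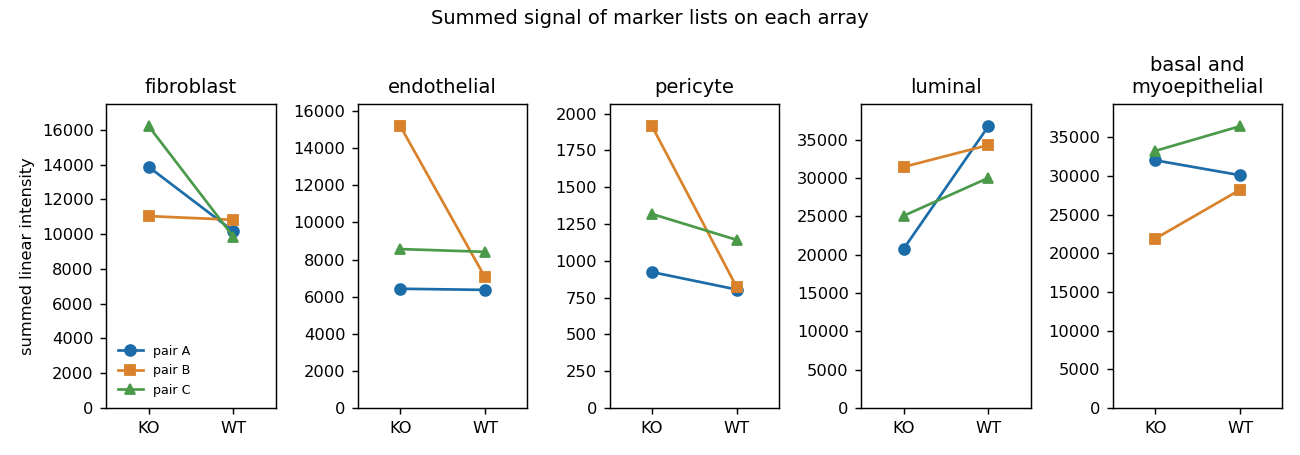
Summed linear intensity of 5 marker lists on each array, with KO left and WT right and lines joining the cultures of a pair. The fibroblast sum is at 11037 to 16212 in KO and 9844 to 10825 in WT, and the endothelial and pericyte sums stand highest on KO array B.

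The tested fibrillar chains were all higher on average in KO, but Col1a2, Col2a1 and Col27a1 by less than their SE. All 7 tested fibrillar genes had a positive difference, and the class median was 0.52, made up of 0.94 (pair A), 0.06 (pair B) and 0.50 (pair C). That median is the value of Col5a3, whose WT mean of 4.44 lay below the lowest detected signal (4.49 to 4.60), and the other 6 genes were at 0.09 to 0.11 or at 0.84 to 1.0002. Col1a1, which encodes the main chain of type I collagen, read 9.56, 8.96 and 10.06 in KO cultures A, B and C, against 8.42, 8.90 and 8.52 in WT cultures. Every KO value lay above every WT value, but KO culture B exceeded WT culture B only by 0.06. The difference was 0.91 (SE 0.30), or 1.88-fold, with unadjusted p = 0.0190 and limma adjusted p = 0.9999.

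Col3a1, the chain of type III collagen that accompanies type I in soft tissue, read 7.72, 6.75 and 8.16 in KO and 6.25, 6.76 and 6.62 in WT. KO cultures A and C stood above all WT cultures and KO culture B did not. It differed by 1.0002 (SE 0.37), and a second probe differed by 0.73 (SE 0.33). Col5a1, a chain of the collagen that starts and limits fibrils of type I, read 9.89, 9.28 and 10.01 in KO and 8.84, 8.81 and 9.002 in WT. The groups did not overlap. The difference was 0.84 (SE 0.23, 1.79-fold), with 1.05, 0.46 and 1.01 within pairs A, B and C. Col5a3, a further type V chain, read 5.31, 4.77 and 4.80 in KO against 4.36, 4.65 and 4.30 in WT. It was detected on all 3 KO arrays and on 1 WT array, close to background, and differed by 0.52 (SE 0.21). The other fibrillar genes had small differences at their brightest probes. Col2a1, the cartilage chain, differed by 0.11 (SE 0.19) and Col27a1 by 0.09 (SE 0.16). Both were close to background, with means of 4.90 and 4.84 in KO and 4.79 and 4.76 in WT. A second Col27a1 probe, detected on 5 arrays, differed by 0.37 (SE 0.20), with every KO value above every WT value. Col1a2, the partner of Col1a1 in type I collagen, differed by 0.09 (SE 0.26), with 0.48, -0.55 and 0.35 within pairs A, B and C, and its probe was detected on 2 KO and 3 WT arrays. The remaining genes of the class, Col5a2, Col11a1, Col11a2 and Col24a1, had no tested probe.

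**Figure D4:**
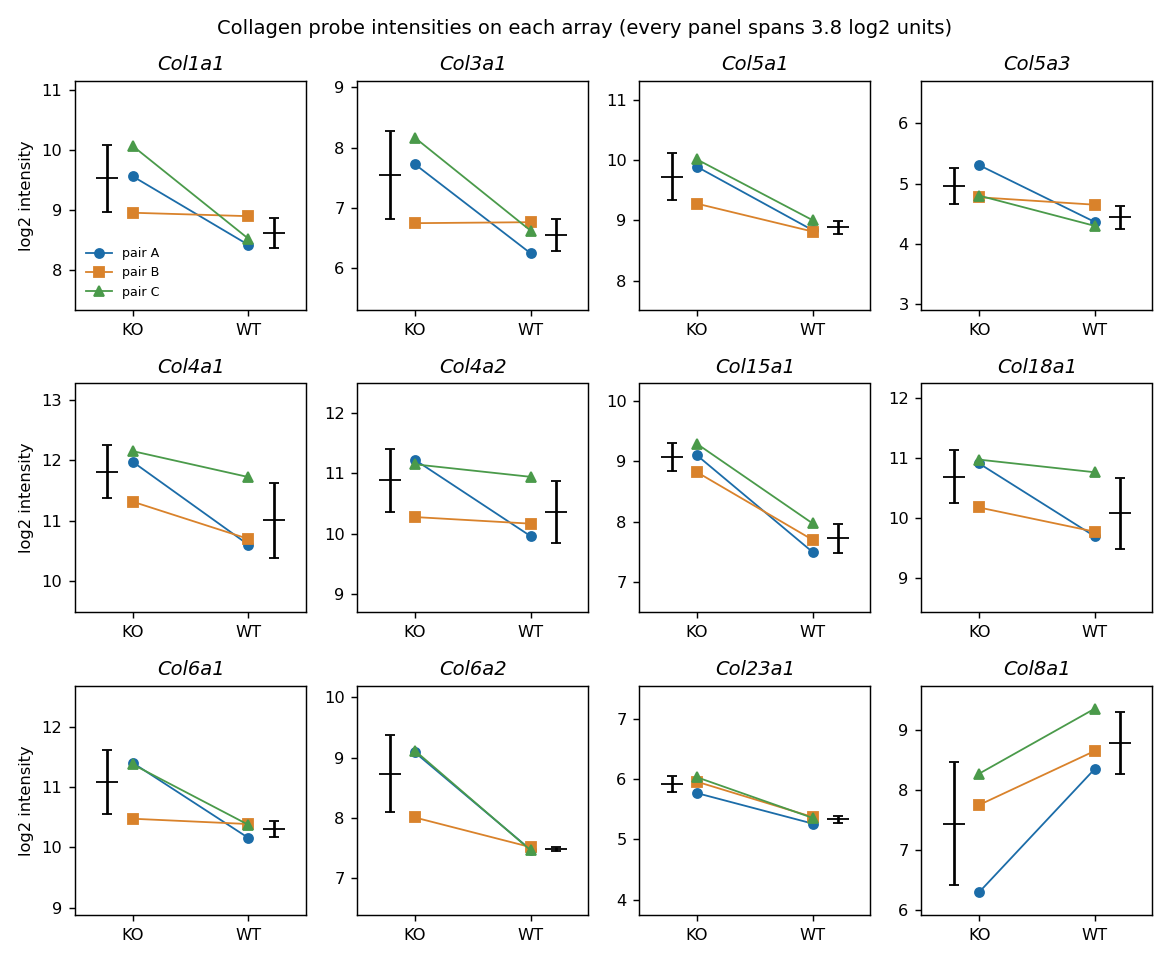
Log2 intensity of 12 collagen genes on each array, KO left and WT right, with lines joining the cultures of a pair and black marks for the group mean ± SD (n = 3). Every panel spans the same range of log2 units. Col15a1, Col5a1, Col6a2 and Col23a1 are higher in KO in every pair, Col8a1 is lower in every pair, and Col1a1, Col3a1 and Col6a1 are nearly level in pair B.

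In the basement membrane class, Col15a1 had the smallest p of all collagen genes. Col15a1 read 9.10, 8.82 and 9.29 in KO cultures A, B and C, against 7.497, 7.70 and 7.97 in WT cultures. The groups did not overlap, with differences of 1.60, 1.12 and 1.32 in the pairs. The difference of 1.35 (SE 0.21) was 2.55-fold, with unadjusted p = 0.000307, limma adjusted p = 0.688 and a single probe (ILMN_1222111). Its adjusted p was 0.191 with the pair as a replicate block, in a range of 0.0854 to 0.99999 over the alternatives.

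The paired type IV genes Col4a1 and Col4a2 had positive differences in every pair, with overlapping groups. Col4a1 read 11.98, 11.32 and 12.15 in KO and 10.60, 10.70 and 11.72 in WT, where the high WT value is that of pair C. Its difference was 0.81 (SE 0.36), with 1.37, 0.62 and 0.43 within pairs A, B and C. Col4a2 read 11.22, 10.27 and 11.15 in KO and 9.96, 10.17 and 10.94 in WT, a difference of 0.53 (SE 0.35), with 1.27, 0.11 and 0.21 in the pairs. In both genes pair A had the largest gap. Col18a1, which encodes the precursor of endostatin, read 10.91, 10.18 and 10.97 in KO and 9.70, 9.78 and 10.76 in WT, a difference of 0.61 (SE 0.35). Its other tested probes differed by 0.68 (SE 0.24) and 0.20 (SE 0.21). The second type IV pair, which lies side by side on the X chromosome, had no such pattern. Col4a5 differed by 0.14 (SE 0.38), and Col4a6 read 6.10, 5.77 and 6.18 in KO against 6.20, 6.30 and 6.32 in WT, with every KO value below every WT value. The Col4a6 difference was -0.25 (SE 0.18), and -0.10 (SE 0.22) at its second tested probe. Over the 6 tested genes of the class the median was 0.57, with 1.24, 0.26 and 0.21 within pairs A, B and C. It was 0.37 without WT replicate A and 0.88 without WT replicate C. Col4a3 and Col4a4 had no tested probe.

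Both tested type VI chains had higher values in KO. Col6a2 read 9.09, 8.01 and 9.11 in KO and 7.47, 7.51 and 7.46 in WT. The WT arrays were nearly identical (SD 0.03) and all KO arrays lay above them. The difference was 1.25 (SE 0.31, 2.38-fold, unadjusted p = 0.00483, limma adjusted p = 0.9999), while a second probe differed by only 0.01 (SE 0.21). Col6a1, which lies beside Col6a2 on chromosome 10, read 11.40, 10.47 and 11.37 in KO and 10.15, 10.39 and 10.37 in WT. KO culture B was again the lowest of the KO cultures and just above the WT range. The difference was 0.78 (SE 0.28) at this probe and 0.70 (SE 0.21) and 0.30 (SE 0.25) at the other tested probes.

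Collagen VIII had the opposite sign. Col8a1, a short-chain collagen of vessel walls and of the membrane under corneal endothelium, read 6.30, 7.75 and 8.27 in KO cultures A, B and C, against 8.35, 8.64 and 9.35 in WT cultures. Every KO value lay below every WT value, and KO culture A was the lowest. The difference was -1.34 (SE 0.52), a 2.53-fold lower signal in KO, with unadjusted p = 0.0349 and limma adjusted p = 0.9999. Leaving out KO replicate A gave -0.77, and leaving out KO replicate C gave -1.75. The second probe gave -1.18 (SE 0.48), with -1.58, -0.79 and -1.17 within pairs A, B and C. Col8a2, its partner chain, read 4.73, 4.66 and 5.001 in KO and 5.17, 4.94 and 5.21 in WT, a difference of -0.31 (SE 0.18) near background.

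Of the transmembrane collagens, Col23a1 read 5.77, 5.96 and 6.03 in KO and 5.26, 5.37 and 5.36 in WT. The groups did not overlap, and the differences in the pairs were alike at 0.51, 0.58 and 0.67. The group difference was 0.59 (SE 0.16, unadjusted p = 0.00796), and 0.32 (SE 0.17) at the second tested probe. At the first probe it was 0.21 on the authors' log2 table, 0.23 with background left uncorrected and 0.35 with an offset of 50. Col17a1, the hemidesmosome collagen of basal epithelial cells, read 9.37, 8.12 and 9.91 in KO and 8.92, 9.08 and 9.96 in WT. Its difference was -0.18 (SE 0.49), with no common sign over the pairs.

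Of the FACIT genes none had an unadjusted p under 0.05 in limma without the block, and the 4 tested ones had a median of 0.06. Col16a1 read 11.04, 10.38 and 10.99 in KO and 10.45, 10.59 and 11.04 in WT, a difference of 0.11 (SE 0.25). Col14a1, a collagen on the surface of type I fibrils, read 8.31, 6.89 and 8.37 in KO and 7.71, 7.75 and 8.10 in WT. KO culture B was the lowest of all cultures and the group difference was 0.00 (SE 0.40). Col9a2 read 8.55, 7.82 and 9.21 in KO and 8.52, 8.28 and 9.05 in WT, a difference of -0.09 (SE 0.37). Col9a1, a chain of the same collagen IX known from cartilage, differed by 0.57 (SE 0.31). Within pairs A, B and C its differences were 0.40, 0.50 and 0.80. In limma with the pair as a replicate block its unadjusted p was 0.00965 and its adjusted p 0.516. Its signal was low, with means of 5.58 in KO and 5.01 in WT, and only 1 of its 4 probes was tested.

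Col7a1, the chain of the anchoring fibrils below epithelial basement membranes, read 8.84, 7.83 and 9.44 in KO and 8.25, 8.52 and 8.85 in WT. The groups overlapped widely and the difference was 0.16 (SE 0.40), with -0.69 in pair B. Col26a1 read 5.60, 4.72 and 5.68 in KO and 4.66, 4.53 and 4.59 in WT, with no overlap and a difference of 0.74 (SE 0.28) close to background. The difference was 0.20 on the authors' log2 table and 0.23 with background left uncorrected. Its second tested probe, detected on all 6 arrays, differed by 0.15 (SE 0.24) with overlapping groups. Col28a1 read 4.61, 4.89 and 4.53 in KO and 4.39, 4.35 and 4.59 in WT, a difference of 0.23 (SE 0.18), and was detected on 1 of 3 WT arrays.

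More than 1 tested probe was present for 13 of the tested genes, and in all 13 every tested probe had the same sign. Of the 15 collagen genes without a tested probe, 9 were not detected on any array at any probe and 6 on 1 or 2 arrays. The first were Col4a3, Col6a4, Col6a5, Col6a6, Col9a3, Col10a1, Col13a1, Col19a1 and Col22a1, and the second were Col4a4, Col5a2, Col11a1, Col11a2, Col24a1 and Col25a1.

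Genes that act on collagen were read from lists of their roles. The crosslinking enzymes had the largest median of the 7 lists, 0.84, with positive differences and no overlap of the groups for both tested genes. Loxl1 differed by 1.06 (SE 0.29), with 1.52, 0.28 and 1.39 within pairs A, B and C, and Lox, the lysyl oxidase that crosslinks collagen and elastin, by 0.61 (SE 0.24). Of laminin chains and other basement membrane proteins, 9 of 11 had a positive difference, with a median of 0.39. Nid1 and Nid2, the nidogens, differed by 0.96 (SE 0.20) and 0.80 (SE 0.20), and Hspg2, the proteoglycan perlecan, by 0.66 (SE 0.21), each without overlap of the groups. Such KO values above WT were found for 4 of the 11 genes of this list and 3.11% of all genes. Of the 17 genes for folding and modification of collagen 14 had a positive difference, with a median of 0.14, among them the prolyl hydroxylase genes P3h3 at 0.50 (SE 0.21), P3h1 at 0.56 (SE 0.25) and P4ha2 at 0.56 (SE 0.29). Of the 7 export and propeptide-cleaving genes 5 had negative differences, and the list median was -0.24. Bmp1, a procollagen C-proteinase, differed by -0.40 (SE 0.19). Its enhancer Pcolce differed by 0.53 (SE 0.27) and the coat protein gene Sec23a by -0.30 (SE 0.19).

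Fibril-associated proteins had 9 of 13 positive differences and a median of 0.48. The medians within pairs A, B and C were 0.09, -0.10 and 0.65, and 2 genes were positive and 1 negative in all 3 pairs. Fmod, fibromodulin, differed by -0.66 (SE 0.29), Fn1, fibronectin, by 0.95 (SE 0.42) with -0.47 in pair B, and Dpt, dermatopontin, by 0.70 (SE 0.32). Collagen receptors had 5 of 9 positive, with Antxr1 at 0.53 (SE 0.29), Itga11 at 0.38 (SE 0.30) and Cspg4 at 0.24 (SE 0.18). Collagen-degrading proteases had 5 of 7 positive and a median of 0.09, with Mmp1a at -0.18 (SE 0.18), Ctsk at 0.29 (SE 0.32) and Mmp9 at -0.34 (SE 0.44). In all of these lists 0 genes passed in limma over all probes, and the number with an unadjusted p under 0.05 was 1 for folding, 2 for crosslinking, 3 for basement membrane partners and 0 for the other 4, where 3.24% of all genes had one.

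Over the 6 arrays the genes whose log2 intensity followed that of Col1a1 most closely were Cyria, Xlr4a, Ext1, Col3a1 and B3galnt1, with Pearson correlations of 0.995, 0.988, 0.986, 0.982 and 0.978. Among the collagens Col6a2 (0.941), Col6a1 (0.941), Col5a1 (0.928) and Col26a1 (0.915) came next, and Col8a1 had -0.495. These values describe 6 arrays that differ in genotype and pair, and neither was taken out of the correlation.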

How the data were processed

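For each bead array the authors deposited non-normalised probe intensity. The deposited detection p-values stand beside each array in the file headers. A second deposited table holds log2 values with a median of 6.75 in every column. They rank probes as the raw intensity does (Spearman 1), so genes were not centred and the direction is that of the signal. How it was transformed is unstated. Per the submitters' processing notes, GenomeStudio and lumi were used. Total RNA was labelled as biotinylated cRNA, per the labels' protocols.

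Raw intensities were normalised with neqc of limma 3.58.1 in R 4.3.3 (background from the detection p-values, offset 16, quantiles, log2). KO minus WT was tested with limma's lmFit and eBayes (two-sided), with Benjamini-Hochberg adjustment over 17920 probes and a threshold of 0.05. A gene was its brightest tested probe. Symbols came from the platform annotation, with 34885 of 45281 probes bearing 1 symbol, 18 several and 10378 none, updated through GRCm38.p6, which changed 0 collagen symbols. Columns with no sample numbered 0. Col6a3, Col12a1, Col20a1 and Col21a1 have no named probe here.

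All collagen genes with a tested probe were named, with values on every array where the unadjusted p was under 0.05, the groups did not overlap or the probe was among the 3 brightest of its class, and up to 3 genes of smallest p per related list. Members and lists were chosen with earlier results of these data known. KO and WT arrays of the same pair shared deviations from the group mean (correlation 0.352 for A, 0.490 for B, 0.720 for C), although KO B with WT A gave 0.423 and KO A with WT B 0.254. All same-letter values exceeded 0.1 and the labels speak of pairs, so the pair was used as a replicate block in an alternative fit. The fit was tested on simulated data with changes larger than any collagen difference and with no pairs. Differences of the collagen size were not covered. Few arrays limit the precision.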

Additional observations from a re-analysis of the deposited data

How the results depend on the processing

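No collagen gene had an adjusted p under 0.05 under any of 19 alternatives, and the median over the collagen genes stayed positive in all 19, between 0.11 and 0.59. That median, 0.38 in the reported fit, was 0.14 on the authors' log2 table, 0.15 with background left uncorrected and 0.20 with an offset of 50. Array weights gave the lowest adjusted p, 0.0854 for Col15a1. The replicate block by pair letter gave 13 collagen genes at an unadjusted p under 0.05, and changed no call. That count was 10 in the reported fit, 5 with median scaling and 4 to 12 when an array was left out. With median scaling 35.6% of all genes had a positive difference, and the unadjusted split over all genes was 61 higher and 261 lower, against 155 and 183. The fibrillar median of 0.52 was 0.15 with background left uncorrected, 0.14 on the authors' log2 table, 0.23 with an offset of 50, 0.19 without a detection filter, 0.91 with detection p under 0.01 on all 6 arrays and 0.72 with pairs A and C only, a setting chosen after seeing the data. The basement membrane median of 0.57 was 0.87 with array weights, 0.34 when no detection filter was set and 0.37 to 0.88 when an array was left out. The filters change which genes are counted, and the cause of the other shifts was not tested. Without a detection filter 33 of 41 collagen genes had a positive difference. The stricter filter kept 18, with 14 positive. Of 21 genes given by array, 16 kept their sign in every alternative run. Col14a1 was -0.12 with median scaling and -0.13 with pairs A and B only, where Col7a1 was -0.051. With array weights Col9a2 was 0.15 and Col17a1 0.11, and with pairs A and C only they were 0.094 and 0.20. When an array was left out, the range was -0.25 to 0.48 for Col14a1, -0.43 to 0.26 for Col9a2, -0.57 to 0.32 for Col17a1, -0.21 to 0.60 for Col7a1 and -0.0077 to 0.32 for Col16a1. Col5a3, Col28a1, Col26a1 and Col1a2 were not detected on every array, where the lowest detected signal was 4.49 to 4.60, which limits the size of their differences.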

Other observations

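Markers of other cell types had their own patterns over the pairs. All 10 tested endothelial genes had a positive difference, with a median of 0.47, but the medians were -0.04, 1.10 and 0.25 in pairs A, B and C. In the same pairs the medians were 0.59, 0.07 and 0.31 over all tested collagen genes, and 1.24, 0.26 and 0.21 over the basement membrane collagens. The part of endothelial cells in the collagen values was not tested. Pecam1, an adhesion molecule of endothelial cells, read 8.80, 10.18 and 9.38 in KO and 8.95, 8.92 and 9.11 in WT. All 8 pericyte genes were positive, with medians of -0.01, 0.75 and 0.23 in the pairs. Rgs5, a pericyte gene, differed by 0.55, 1.91 and 0.02. None of these genes passed in limma over all probes. At an unadjusted p under 0.05 in limma there were 0 endothelial genes and 1 pericyte gene, where 3.24% of all genes had one.

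The other lists differed in direction, and several had few tested members. Basal and myoepithelial genes had 4 of 8 positive and a median of -0.03. Macrophage and leukocyte genes had 5 of 6 positive and a median of 0.11, and the 2 tested Schwann cell genes had a median of 0.42. Of 4 tested adipocyte genes 2 were positive, with Lpl, lipoprotein lipase, at 1.24 (SE 0.42) and Pparg at -0.58 (SE 0.39), while Fabp4, Plin1, Cidec, Cd36 and Retn were not detected on any array. Of 8 cartilage genes 3 were tested, with a median of -0.19, and Acan, Matn1, Matn3, Cnmd and Hapln1 were not detected on any array.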
